A study of Mus musculus with 6 samples.

Results

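The 10 genes examined build the MHC class I pathway: the heavy chains H2-K1, H2-D1 and H2-T23, their shared light chain B2m, the peptide transporter Tap1 and Tap2, the loading factor Tapbp, and the inducible proteasome subunits Psmb8, Psmb9 and Psmb10. The rule takes them by name and uses no measured value, although the list was drawn up with earlier results of these data known. Values were read from probe sets to which the array's annotation gives a single gene symbol. Of the 10 genes, 9 could be measured among 15027 genes in all. Both probe sets that carry H2-T23 also carry another symbol, so H2-T23 has no value here. The measurements come from Affymetrix arrays on sorted cells of MMTV-Wnt-1 mammary tumours, which arise in a mouse line whose transgene places Wnt1 under the promoter of the mouse mammary tumour virus. The labels state neither age nor strain. In each of 3 mice, numbered 1 to 3 in the titles, the cells labelled tumorigenic were gated as CD24+, Thy+ and CD45-, and the cells labelled nontumorigenic were those outside that gate, with no statement of whether the negation reaches CD45. That gave 3 arrays per label, each from 1 animal, with both labels represented in every mouse. The study derived a signature by setting the tumorigenic samples against the nontumorigenic ones, and the same contrast was made here for the class I genes.

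As background, class I molecules show fragments of the cell's own proteins to cytotoxic T cells. The proteasome cuts the proteins, the Tap1-Tap2 transporter carries the peptides into the endoplasmic reticulum, Tapbp (tapasin) holds the empty heavy chain beside the transporter, and the heavy chain leaves for the surface once it has bound B2m and a peptide. Most nucleated cells express the pathway, leukocytes strongly, and interferon gamma raises most of its genes together and exchanges the catalytic subunits of the standard proteasome for Psmb8, Psmb9 and Psmb10.

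The upstream DNA of the class I genes is shown because the genes are known to share control elements and because their values varied together across the arrays, as described below. RefSeq (GRCm38.p6) entries were found for 9 of the 10 genes, all but Tap2, and the first listed start of each was used. The capitals mark matches on either strand to GAAANNGAA (an IRF element), TTCNNNGAA (a GAS element) or GGGANNNCC (an NF-kappaB-like element). The windows end at the base before the start: chr17:34000348-34000547, minus strand, for H2-K1, chr17:35262894-35263093, plus strand, for H2-D1, chr2:122147487-122147686, plus strand, for B2m, chr17:34197995-34198194, plus strand, for Psmb8, and chr17:34187331-34187555, plus strand, for the 225 bases that separate the divergent starts of Tap1 and Psmb9.
H2-K1: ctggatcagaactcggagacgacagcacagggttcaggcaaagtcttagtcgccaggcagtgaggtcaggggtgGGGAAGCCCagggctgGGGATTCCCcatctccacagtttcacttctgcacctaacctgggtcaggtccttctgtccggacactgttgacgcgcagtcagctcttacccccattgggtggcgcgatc
H2-D1: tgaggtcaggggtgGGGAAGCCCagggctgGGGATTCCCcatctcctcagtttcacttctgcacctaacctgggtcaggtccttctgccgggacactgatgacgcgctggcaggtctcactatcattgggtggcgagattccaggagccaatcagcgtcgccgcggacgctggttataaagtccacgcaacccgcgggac
B2m: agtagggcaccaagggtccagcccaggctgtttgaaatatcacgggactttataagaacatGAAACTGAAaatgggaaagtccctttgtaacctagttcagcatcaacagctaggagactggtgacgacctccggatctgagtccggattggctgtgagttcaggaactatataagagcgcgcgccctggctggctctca
Psmb8: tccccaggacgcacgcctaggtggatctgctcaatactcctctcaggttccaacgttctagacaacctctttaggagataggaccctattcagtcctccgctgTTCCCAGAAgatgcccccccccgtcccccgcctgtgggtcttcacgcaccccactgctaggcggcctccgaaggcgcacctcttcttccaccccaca
Tap1 and Psmb9: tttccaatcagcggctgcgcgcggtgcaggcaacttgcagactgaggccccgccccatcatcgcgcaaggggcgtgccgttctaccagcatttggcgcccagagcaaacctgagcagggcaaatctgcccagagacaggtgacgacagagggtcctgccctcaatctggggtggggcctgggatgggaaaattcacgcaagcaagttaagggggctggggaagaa

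H2-K1 and H2-D1 share an identical run of 47 bases that holds both of their NF-kappaB-like matches, which lie 126 to 118 and 110 to 102 bases before the H2-K1 start. Within 250 bases upstream, the NF-kappaB-like letters were found in 2 of the 9 genes and in 15.5% of 27025 promoters, 1 per gene. The IRF letters were found in 2 of 9, B2m and H2-T23, against 7.16% of all, and the GAS letters in 1 of 9, Psmb8, against 7.18%. The core TGACG, left in lower case, was found in 5 of 9 against 17.9%, and for Tap1 and Psmb9 it is the same site in the interval they share. No match overlapped a match of another motif in the 9 windows. Such matches are descriptions of letters, not of bound factors, and a window without a match says nothing about a factor.

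Both class I heavy chains, the transporter, tapasin and all 3 inducible proteasome subunits had higher means under the tumorigenic label, but no difference passed the test over all genes. All 9 measured genes had positive log2 differences, from 0.25 for B2m to 1.04 for Psmb8, with a median of 0.52, while the median over all 15027 genes was 0.0051. By limma with Benjamini-Hochberg adjustment over all genes, 0 of 9 passed at 0.05 (adjusted p from 0.555 to 0.750), and 0% of all genes did. At an unadjusted p below 0.05, 4 of 9 were higher, namely H2-K1, H2-D1, Psmb8 and Psmb10, against 5.23% of all genes. With the mouse as a block that count was 2, Tap2 and Psmb10, against 5.77%. The 3 arrays of each label did not overlap, with the tumorigenic label higher, in 3 of 9 genes, H2-K1, H2-D1 and Psmb8, against 6.90% of all genes. Within-mouse differences were positive in all 3 mice in 7 of 9 genes, all but Tapbp and Psmb9, against 15.9%. The lowest mean level of the 9 over all arrays was 6.04, well above the dim cut of 2.98, so none entered the comparison through a single label.

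**Figure D1:**
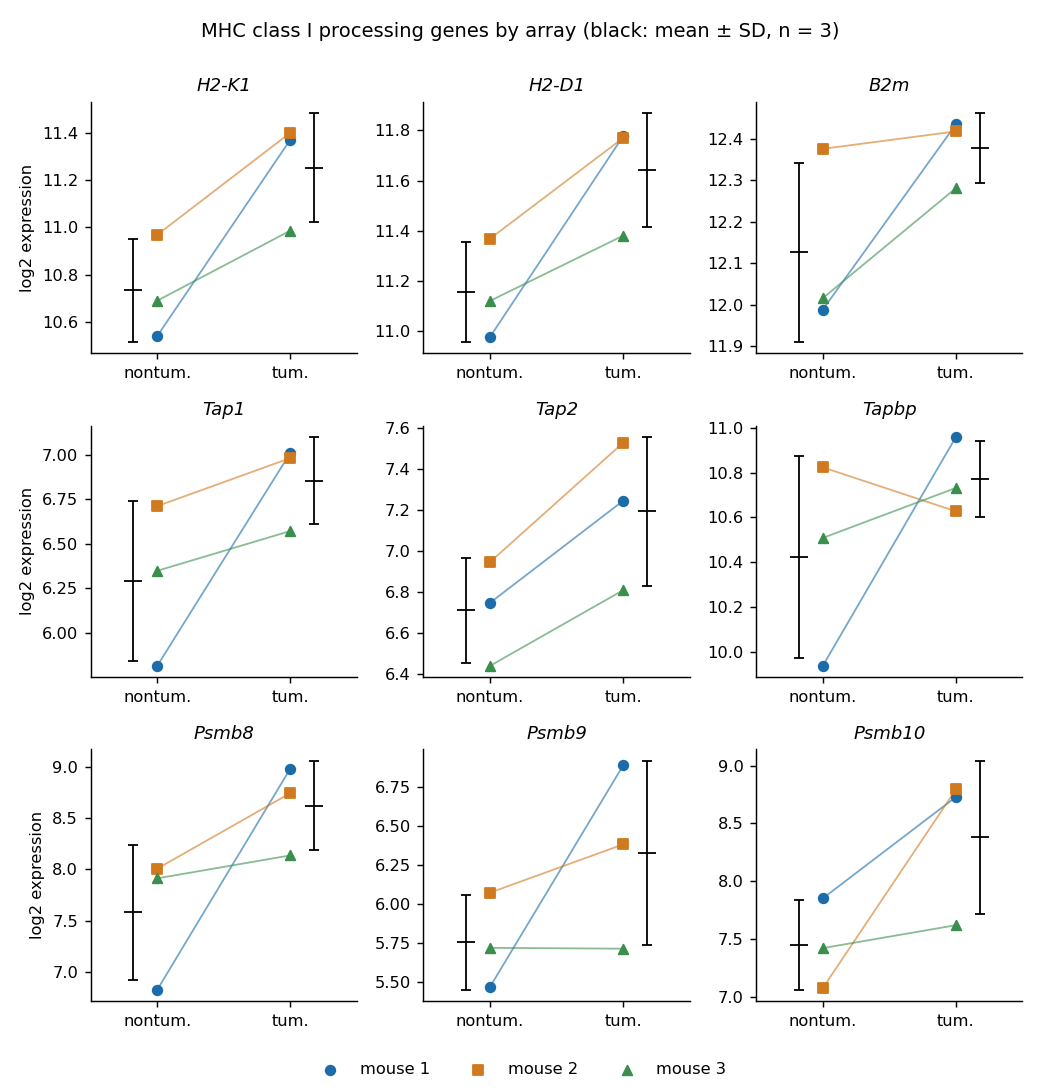
Log2 expression (vertical axis, scaled per gene) of the 9 measured class I genes in the nontumorigenic (nontum.) and tumorigenic (tum.) label, with a line joining the 2 arrays of a mouse and the mean ± SD of 3 arrays in black. In 7 genes every line climbs to the right. Tapbp in mouse 2 falls by 0.20, and Psmb9 in mouse 3 is level at 5.72 and 5.71.

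H2-K1 and H2-D1 encode the classical heavy chains that present peptide to CD8 T cells. H2-K1 had levels of 11.37, 11.40 and 10.99 under the tumorigenic label (here and below in the order of mice 1, 2 and 3), and of 10.54, 10.97 and 10.69 under the nontumorigenic label. The labels did not overlap, but by little: the lowest tumorigenic array, of mouse 3, lay just above the highest nontumorigenic array, of mouse 2. The log2 difference was 0.52 (SE 0.20, 95% interval from 0.030 to 1.01; limma adjusted p = 0.562), a 1.43-fold difference. H2-D1 read 11.78, 11.77 and 11.38 against 10.98, 11.37 and 11.12. The pattern was that of H2-K1, with the same 2 arrays closest to each other, and the log2 difference was 0.49 (SE 0.20, 95% interval from 0.011 to 0.96; limma adjusted p = 0.582). Over the 6 arrays the values of both genes correlated at r = 0.999. They are related genes whose transcripts can be similar in sequence, which was not compared here, and 4 of 4 H2-K1 and 7 of 9 H2-D1 probe sets are of the type that can share probes with other transcripts, so the level of either gene is uncertain and they are not independent measurements.

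B2m, the light chain that every class I heavy chain needs, differed least. It read 12.43, 12.42 and 12.28 under the tumorigenic label and 11.99, 12.38 and 12.02 under the other. The labels overlapped because the nontumorigenic array of mouse 2 was above the tumorigenic array of mouse 3. The log2 difference was 0.25 (SE 0.17, 95% interval from -0.17 to 0.67; limma adjusted p = 0.727).

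The transporter genes Tap1 and Tap2 encode both chains of the peptide pump. Tap1 read 7.01, 6.98 and 6.57 against 5.82, 6.71 and 6.35, with mouse 1 farthest apart and an overlap between the tumorigenic array of mouse 3 and the nontumorigenic array of mouse 2. Its log2 difference was 0.56 (SE 0.28; limma adjusted p = 0.635), or 0.25 without mouse 1. Tap2 read 7.24, 7.53 and 6.81 against 6.75, 6.95 and 6.44. Here the mice differed in level while the differences within mice were alike, at 0.50, 0.58 and 0.37. The log2 difference of Tap2 was 0.48 (SE 0.25; limma adjusted p = 0.652, and 0.515 with the mouse as a block). Tapbp, which bridges transporter and heavy chain, read 10.96, 10.63 and 10.73 against 9.94, 10.82 and 10.51. Only the nontumorigenic array of mouse 1 stood low. The log2 difference of 0.35 (SE 0.26; limma adjusted p = 0.750) was 0.013 without mouse 1.

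The inducible proteasome subunits held the largest differences of the 9 genes. Psmb8 (LMP7), a catalytic subunit that replaces Psmb5, read 8.98, 8.75 and 8.14 under the tumorigenic label and 6.83, 8.01 and 7.91 under the other. The labels did not overlap, and the nontumorigenic array of mouse 1 was far below the others. Its log2 difference was 1.04 (SE 0.39, 95% interval from 0.085 to 1.995; limma adjusted p = 0.555), a 2.06-fold difference, or 0.48 without mouse 1. Psmb10 (MECL-1), which replaces Psmb7, read 8.73, 8.79 and 7.62 against 7.85, 7.07 and 7.42. Its tumorigenic arrays of mice 1 and 2 were high, that of mouse 3 lay within the other label, and the log2 difference was 0.93 (SE 0.38, 95% interval from 0.00071 to 1.87; limma adjusted p = 0.587), or 0.54 without mouse 2. Psmb9 (LMP2), which replaces Psmb6 and shares its upstream interval with Tap1, read 6.89, 6.38 and 5.71 against 5.47, 6.07 and 5.72. Mouse 1 gave most of its log2 difference of 0.58 (SE 0.34; limma adjusted p = 0.687), which was 0.15 without that mouse.

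**Figure D2:**
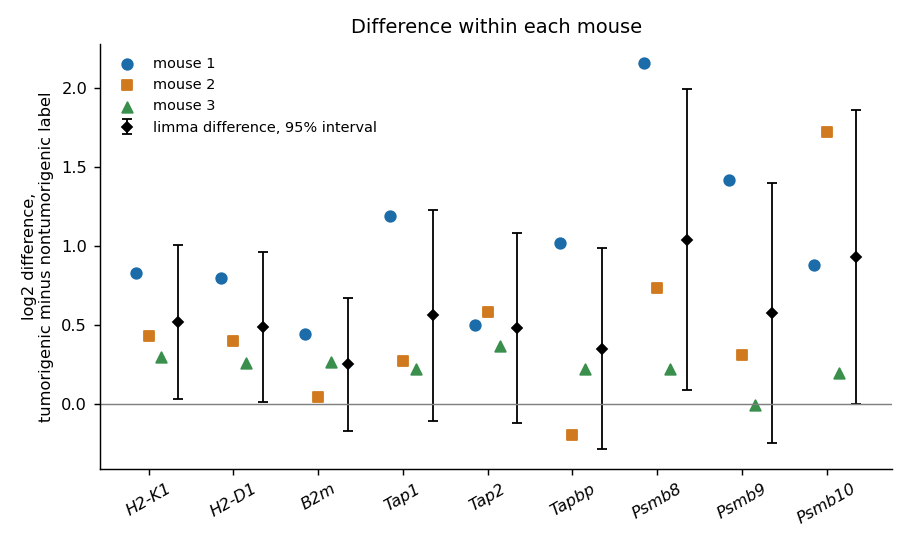
Log2 difference of the tumorigenic minus the nontumorigenic label (vertical axis) for each class I gene within each mouse (coloured marks), beside the limma difference with its 95% interval (black). Mouse 1 gives the largest difference in 7 of 9 genes and mouse 3 in 0. The intervals of H2-K1, H2-D1, Psmb8 and Psmb10 lie above 0, the last by 0.00071.

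The constitutive subunits that the inducible ones replace were set beside them. Psmb5 read 8.56, 9.25 and 9.37 against 8.72, 9.06 and 9.07, Psmb6 read 9.49, 9.61 and 9.87 against 9.48, 9.71 and 9.58, and Psmb7 read 9.10, 9.41 and 9.77 against 9.38, 9.41 and 9.37. All 3 overlapped between the labels. Their log2 differences were 0.11 (SE 0.26), 0.069 (SE 0.17) and 0.039 (SE 0.21), with limma adjusted p from 0.928 to 0.971. The difference of Psmb8 exceeded that of Psmb5 by 0.93 on the log2 scale, or by 2.31, 0.55 and -0.081 in mice 1, 2 and 3. Psmb9 exceeded Psmb6 by 0.51, or by 1.40, 0.41 and -0.29, and Psmb10 exceeded Psmb7 by 0.89, or by 1.16, 1.72 and -0.20. Thus in mice 1 and 2 each inducible subunit had the more positive difference, and in mouse 3 each had the less positive one. Two-sided exact permutation tests over the arrays gave p = 0.3, 0.4 and 0.3 for the 3 pairs (0.4 each after Benjamini-Hochberg adjustment), where 3 arrays against 3 cannot go below 0.1. These tests shuffled the labels over all arrays and ignored that the arrays are paired by mouse.

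**Figure D3:**
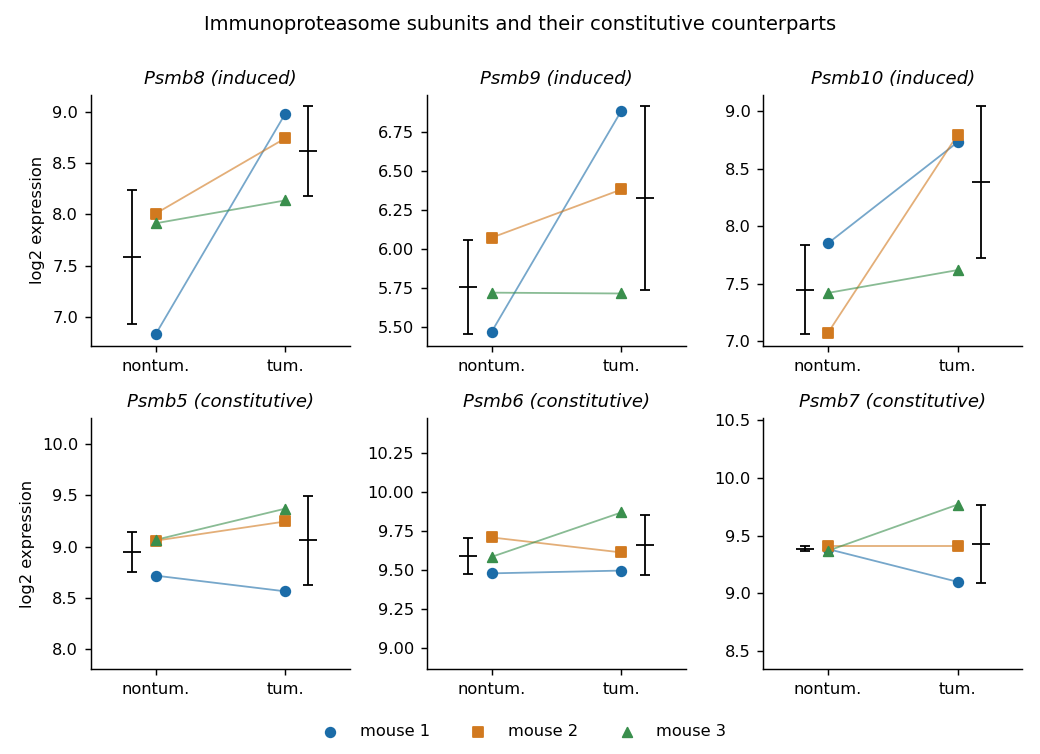
Log2 expression of the inducible proteasome subunits (top) and their constitutive counterparts (bottom) in both labels, with the arrays of a mouse joined and the mean ± SD of 3 arrays in black; both panels of a column span the same number of log2 units. Lines of mice 1 and 2 are steeper on top, whereas those of mouse 3 are slightly steeper at the bottom.

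The 9 genes varied together across arrays. Of 36 pairs of genes, 32 correlated above 0.5 over the 6 arrays, with a median r of 0.83. The lowest was 0.14, for Tapbp and Psmb10. These values share the same 6 arrays and their labels, and they are given as a description. Among tumorigenic arrays, that of mouse 3 was the lowest in 8 of 9 genes, Tapbp being the exception. Among nontumorigenic arrays, that of mouse 1 was the lowest in 7 of 9, and that of mouse 2 the highest in 8 of 9. Tumorigenic mouse 1 exceeded every nontumorigenic array in 9 of 9 genes, mouse 2 in 8 of 9 and mouse 3 in 3 of 9. For these counts of single arrays no share over all genes was computed, so they are descriptions only. Without the tumorigenic array of mouse 3, the labels did not overlap in 8 of 9 genes, against 16.8% of all genes, and without the nontumorigenic array of mouse 2 in 7 of 9, against 12.5%. Both arrays were picked here because they were extreme for the class I genes themselves. A higher count without them follows from that choice, so the contrast with all genes is no support. Outside the 10 genes, the 5 of 15018 whose 6 values followed the mean of the standardised class I genes most closely were Wbp2 (r = 0.999), Rnd2 (0.996), Gm12758 (0.995), Cd274 (0.992) and Stx4a (0.988). Cd274, which encodes the checkpoint ligand PD-L1, read 6.40, 5.99 and 5.32 against 4.18, 5.35 and 4.70. A further look at the same measure shows how common such likeness is with 6 arrays: 245 genes had an r above 0.9.

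Several genes carry more than 1 probe set, 26 in all for the 9 genes. Of the 17 not used to represent a gene, the 7 with a mean level above 5 all had positive differences, in H2-K1, H2-D1 and B2m. Of the 10 at or below 5, 6 were positive. The negative ones, for H2-D1, Tap1 (2 probe sets) and Tapbp, lay between -0.13 and -0.10 and had mean levels of at most 4.39. With the mean of all probe sets in place of the brightest, Tap1 had a log2 difference of 0.22 and Tapbp of 0.11. Bright probe sets did not all share the other traits of the chosen ones. The labels did not overlap in 3 of 4 probe sets of H2-K1, 4 of 9 of H2-D1 and 0 of 2 of B2m, with no share over all probe sets computed. Within mouse 2, an H2-K1 probe set of mean level 10.29 had a difference of -0.10, and the other B2m probe set, of mean level 11.40, had -0.020.

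**Figure D4:**
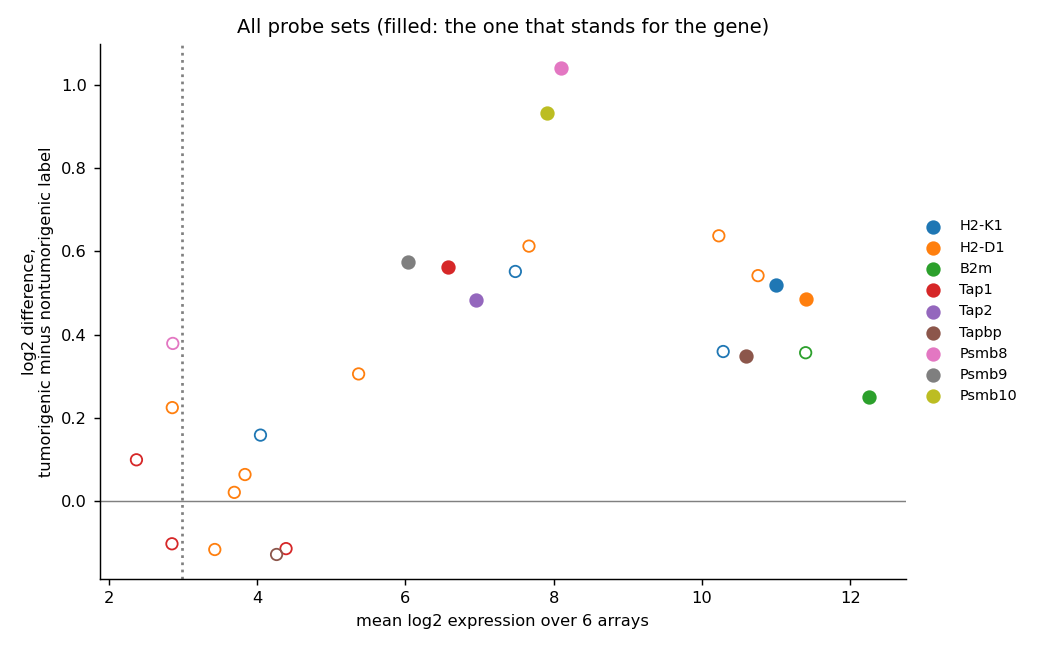
Log2 difference between the labels (vertical axis) against mean log2 level over 6 arrays (horizontal axis) for all 26 probe sets of the class I genes; filled marks stand for the gene and the dotted line is the dim cut of 2.98. The 4 negative probe sets all lie at levels of 4.39 or less.

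Other genes of class I presentation did not pass either. By limma 0 members of any list named here had an adjusted p below 0.05, and counts at an unadjusted p below 0.05 are given for each beside those over all genes, of which 5.23% were higher and 3.27% lower at that level and 50.7% had a positive difference. Of 10 other loading and trimming genes 9 were measured, 3 of them higher at that level and 0 lower against the 5.23% and 3.27% of all genes, with a list median of 0.030. The tapasin-related editor Tapbpl had a log2 difference of 0.85, the glycoprotein quality sensor Uggt1 0.69 and the peptide-trimming peptidase Erap1 0.83 (limma adjusted p = 0.483, 0.522 and 0.579). Tapbpl read 5.98, 6.08 and 5.63 against 5.37, 5.14 and 4.63, so that its labels did not overlap and mouse 3 differed as much as the others. Of 14 further class I or class I-like heavy chains only 4 had a single-symbol probe set above the dim cut, and 0 were higher or lower: H2-M3 had 0.87, H2-T24 0.50, Cd1d1 0.43. Proteasome core subunits outside the catalytic set had a median of 0.027 over 11 genes, with 0 higher and 0 lower. Their values with the smallest p were -0.48 for Psma5, 0.30 for Psma6 and 0.23 for Psmb4. Of 3 proteasome activators 0 were higher and 0 lower at that level: the interferon-inducible Psme1 had 0.22, Psme3 -0.11 and Psme4 0.0056.

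Regulators of the pathway, interferon response genes and class II genes did not pass either, and their list medians differed. Of 12 transcriptional regulators 11 were measured, with a median of 0.025 and 0 higher or lower at an unadjusted p below 0.05. Nlrc5, the class I transactivator, read 9.92, 9.68 and 9.40 against 9.25, 9.40 and 9.14, so that its log2 difference was 0.40 (SE 0.19; limma adjusted p = 0.632). The interferon-inducible factor Irf1 had 0.82 and the class II and class I cofactor Rfxank -0.27. Interferon gamma itself (Ifng) read 7.42 in the tumorigenic array of mouse 1 and between 2.54 and 3.08 in the other 5, while the kinase Jak1 and the receptor chain Ifngr2 had differences of 0.21 and -0.062. Of 5 measured genes of interferon gamma signalling 0 were higher or lower. Of 18 measured interferon response genes 17 had positive differences, against 50.7% of all genes, and 3 were higher at an unadjusted p below 0.05, against 5.23%. The list median was 0.77 overall and 1.11, 1.27 and -0.16 within mice 1, 2 and 3. Ifit2 had 1.53, Cxcl10 1.42 and Stat2 0.82 (limma adjusted p from 0.483 to 0.574). Class II presentation genes were all positive, 6 of 6 against 50.7% of all genes, with 3 higher at that level against 5.23%, and their median was 2.30 within mouse 1, 1.31 within mouse 2 and 0.20 within mouse 3. The class I medians were 0.88, 0.40 and 0.22, so that all 3 lists were lowest in mouse 3.

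Markers of other cells varied between the labels too, some in the same order of mice as the class I genes and some not. Their part in the result was not tested. Ptprc, the CD45 gene that the gate should exclude, had levels of 10.21, 7.76 and 3.82 under the tumorigenic label against 2.33, 3.59 and 2.51. Cd24a, for the CD24 that the gate requires, read 11.85, 12.34 and 12.84 against 12.86, 12.84 and 12.99, lower in every mouse. Thy1 had the middle log2 difference of the 3 sort markers, at 0.24. Directions here are therefore between labels and not between verified populations. All 8 pan-leukocyte markers had positive differences, against 50.7% of all genes, and 6 were higher at an unadjusted p below 0.05, against 5.23%. These shares, and 3.27% for lower genes, are also those to set beside the marker lists that follow. The log2 of the summed level of pan-leukocyte markers ranged from 8.76 to 13.67 under the tumorigenic label and from 7.88 to 8.32 under the other. For macrophage and myeloid markers, 11 of 12 were positive, 10 were higher at that level, and the ranges were 9.95 to 14.62 and 8.92 to 9.25. T and NK cell markers were positive in 8 of 9, with 0 higher or lower at that level and ranges of 6.80 to 11.72 and 7.86 to 8.27, and the T cell receptor component Cd3d read 7.43 in tumorigenic mouse 1 and at most 3.69 elsewhere. The negative marker, Cd3e of the same receptor, read 10.28, 6.95 and 3.50 under the tumorigenic label against 7.15, 7.29 and 7.05. All 4 B cell markers were dim, with 0 higher or lower at that level, and their summed levels were 5.13 to 5.40 and 5.13 to 5.21. All 8 endothelial markers were positive, 7 of them at that level (10.53 to 11.29 against 8.82 to 9.74). All 9 luminal markers were negative, 4 of them at that level (10.31 to 12.86 against 13.31 to 13.52). Arrays have no true 0, so no marker can be called absent. In mouse 3, whose tumorigenic array had the lowest pan-leukocyte markers of that label, the median class I difference was 0.22. Pan-leukocyte and myeloid markers were still higher under the tumorigenic label in that mouse, with medians of 0.97 and 0.90. The ranking of the 3 mice by class I median was shared by other lists too: fibroblast markers had medians of 0.94, 0.46 and -1.10, and pericyte markers of 0.41, -0.16 and -0.21. Dendritic cell and neutrophil markers also shared it. T and NK cell, B cell, endothelial, adipocyte, luminal and erythroid markers had other orders, and basal and myoepithelial markers the reverse one, at -0.054, 0.20 and 1.10. In bulk RNA, more cells of a type that express a gene and more RNA per cell cannot be told apart.

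**Figure D5:**
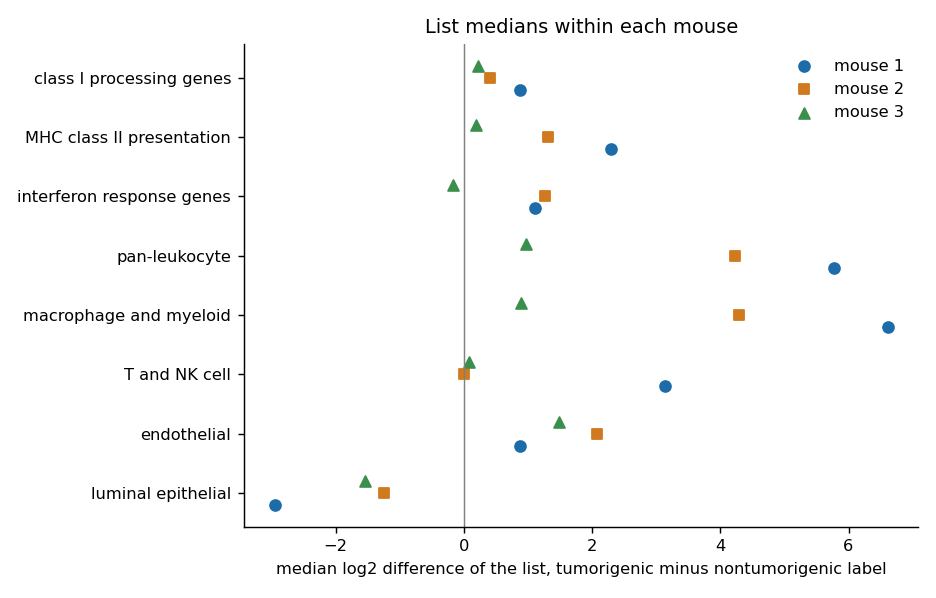
Median log2 difference of the tumorigenic minus the nontumorigenic label (horizontal axis) for 8 gene lists within each mouse (marks). The class I genes, at 0.88, 0.40 and 0.22 in mice 1, 2 and 3, are highest in mouse 1 and lowest in mouse 3, as are the pan-leukocyte list, at 5.78, 4.22 and 0.97, the myeloid list, at 6.61, 4.30 and 0.90, and the class II list, at 2.30, 1.31 and 0.20. The endothelial list, at 0.88, 2.07 and 1.49, has another order, as do the interferon response, T and NK cell and luminal lists.

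Array quality differed between the labels as well. Array medians lay between 4.36 and 4.40. The control for 18S rRNA (3' end) read 6.32 to 7.76 in the tumorigenic arrays and 8.52 to 8.97 in the others. The 3' control probe set of Gapdh was brighter than the 5' one by 6.60 log2 units in the tumorigenic array of mouse 2 and by 2.41 to 3.81 in the other 5. Without that array the median class I difference was 0.45, and the part of RNA quality was not tested further.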

How the data were processed

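Log2 expression values per probe set were used as deposited; per the submitters' processing notes, the authors had made them with RMA, which summarises the probes of a set and normalises between arrays. Its version and the build were not stated in the sources used here, and the log2 scale was read from the values, whose maximum was 13.87. RMA sets the arrays to a common distribution, so a shift shared by most transcripts would be lost.

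Of 45101 probe sets, 64 controls and the dimmest 25% (mean below 2.98) were left out. Of the non-control probe sets, 34945 had 1 symbol, 932 several and 9160 none; 34741 of the 34945 matched a RefSeq gene (GRCm38.p6) by Entrez identifier with no symbol changed. The brightest single-symbol probe set stood for each gene, which gave 15027 genes. The labels were compared by limma 3.58.1 (lmFit and eBayes, R 4.3.3) across all genes, two-sided, with Benjamini-Hochberg adjustment at 0.05. Differences are tumorigenic minus nontumorigenic; n = 3 per label, and the number of arrays limits the precision. The fitting code was tested on simulated data with a spread set below that of these arrays. That checks the code and does not show what differences could be found here. Both arrays of a mouse come from 1 animal and are paired: their deviations from the label means correlated at 0.079, 0.136 and 0.086 for mice 1 to 3. The genes and lists were chosen with earlier results of these data known. Genes named are the class I genes, their constitutive counterparts, up to 3 of each related list by smallest p, the first marker of a list where its values are given, and the 5 genes most like the class I mean. Cd3e is named too, as the negative member of its marker list.

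Alternatives were the mouse as a block, dim filters, normalisation, the variance prior, array weights, no moderation, the choice of probe set, and leaving out each array or mouse.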

Additional observations from a re-analysis of the deposited data

How the results depend on the processing

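Each of the 9 class I genes kept a positive difference in all 20 alternatives, and 0 passed the adjusted threshold in any. The smallest limma adjusted p was 0.138, for Psmb10 without the tumorigenic array of mouse 3. The mouse block, the dim filters, the variance prior, no moderation and testing all probe sets cannot change a gene's difference. Its sign was therefore probed only by normalisation, array weights, the choice of probe set and leaving out arrays or mice. The median class I difference, 0.52 as reported, ranged from 0.33 to 0.68. Paired by mouse (replicate block), 0 genes and 0 class I genes passed. Over all genes, 1 passed with no dim filter, 1 when the probe sets of each gene were averaged, and 0 to 18 when an array or mouse was left out, the 18 without the tumorigenic array of mouse 3. Class I genes without overlap numbered 3 as reported, 2 after quantile normalisation again, with the probe set of highest spread or with a gene's probe sets averaged, and 3 to 8 when an array or mouse was left out: 8 without the tumorigenic array of mouse 3 or without mouse 3, and 7 without the nontumorigenic array of mouse 2 or without mouse 2. Fewer arrays make an absence of overlap easier to reach. The share of all genes was 6.90% with every array, 16.8% without the tumorigenic array of mouse 3 and 12.5% without the nontumorigenic array of mouse 2. No share was computed for leaving out another array or a mouse, or for the settings with a count of 2, so those counts are descriptions only. The gaps between inducible and constitutive proteasome subunits stayed positive in all 19 alternatives run for them, from 0.23 to 1.43 for Psmb8, 0.058 to 0.92 for Psmb9 and 0.48 to 1.45 for Psmb10. Settings that cannot change a gene's difference cannot change these gaps either, nor can centring each array on its median. The gaps were computed from unweighted means, so the array weights were not applied to them and that alternative does not probe them. Without mouse 1 the differences of Tapbp (0.013), B2m (0.15) and Psmb9 (0.15) were the smallest found for those genes.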
